A study of Mus musculus with 4 samples.

Results

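The 35 genes described here encode the enzymes and factors that supply and run protein synthesis in mitochondria, apart from the ribosome itself. They were taken by symbol from the 17485 genes of the deposited table, in which all 35 were found, and they comprise 16 mitochondrial aminoacyl-tRNA synthetases (symbols ending in ars2) and 19 translation factors, amidotransferase subunits and tRNA modifying or processing enzymes. RNA was sequenced from whole mouse hearts of 2 groups, wild type (WT) and Klf9 knockout (Klf9 KO), with 2 libraries each, labelled male and 8 weeks of age, fed without restriction. Klf9 encodes a DNA-binding protein with zinc fingers (Krüppel-like factor), and the stated interest of the study was its bearing on cardiac mitochondrial function. Neither the strain nor the knockout allele is named in the sources used here. Nothing there ties each library to its own animal, so the p-values rest on library-to-library spread that may be technical.

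Mitochondria keep a small genome that encodes core subunits of the respiratory chain, and they translate its messages with their own ribosomes, tRNAs and factors. The tRNAs are made inside the organelle, while the synthetases that charge them, the factors of initiation, elongation, termination and recycling, and the enzymes that cut and modify the tRNAs are encoded in the nucleus and imported. The heart depends on oxidative phosphorylation, and inherited defects of several of these genes are known causes of cardiomyopathy.

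The start regions of 4 members are shown because 3 of them fell in the knockout and 1 rose, and because they carry matches to motifs of nuclear regulators of mitochondrial genes. Each window, from RefSeq on GRCm38.p6, covers 300 bases around the annotated start, most of them before it, in the direction of the gene, and capitals mark the ETS core (CCGGAAG on either strand, the motif of the GABP factor) or the NRF1-type core (GCGCANGCG on either strand).
Gfm1, chr3:67429865-67430164, plus strand: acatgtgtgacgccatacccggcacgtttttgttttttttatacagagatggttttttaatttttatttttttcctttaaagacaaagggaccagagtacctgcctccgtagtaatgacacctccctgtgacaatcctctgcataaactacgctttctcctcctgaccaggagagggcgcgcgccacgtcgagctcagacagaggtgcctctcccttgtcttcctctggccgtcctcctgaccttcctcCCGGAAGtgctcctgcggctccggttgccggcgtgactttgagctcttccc
Trmt5, chr12:73286662-73286961, minus strand: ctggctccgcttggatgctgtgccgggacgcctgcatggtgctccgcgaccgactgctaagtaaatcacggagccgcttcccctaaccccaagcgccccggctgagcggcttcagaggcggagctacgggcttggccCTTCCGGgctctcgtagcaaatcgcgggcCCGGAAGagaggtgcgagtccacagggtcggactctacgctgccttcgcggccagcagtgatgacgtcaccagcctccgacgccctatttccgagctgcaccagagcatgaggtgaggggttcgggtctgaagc
Iars2, chr1:185329352-185329651, minus strand: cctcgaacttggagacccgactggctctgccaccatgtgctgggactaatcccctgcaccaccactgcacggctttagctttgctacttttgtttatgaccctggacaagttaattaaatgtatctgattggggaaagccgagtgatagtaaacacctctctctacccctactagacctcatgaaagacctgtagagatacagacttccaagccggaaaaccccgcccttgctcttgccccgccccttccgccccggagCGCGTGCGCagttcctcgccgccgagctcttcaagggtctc
Trmu, chr15:85879077-85879376, plus strand: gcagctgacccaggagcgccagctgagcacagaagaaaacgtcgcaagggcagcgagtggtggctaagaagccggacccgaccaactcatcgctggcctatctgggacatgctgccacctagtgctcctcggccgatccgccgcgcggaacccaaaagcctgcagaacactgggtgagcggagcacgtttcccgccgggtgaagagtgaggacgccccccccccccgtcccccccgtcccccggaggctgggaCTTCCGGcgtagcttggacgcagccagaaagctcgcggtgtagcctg
The ETS core stood in the windows of Gfm1 and Trmt5, which fell, and in that of Trmu, which rose. Of the 31 members with a window in the RefSeq table, 9 (29.0%) held the ETS core, against 20.2% of 9672 tested genes with a window. The NRF1-type core was in 6 of 31 (19.4%), against 15.3%. GC boxes (GGGCGG), the type of site that Krüppel-like and Sp factors bind, were in 20 of 31 (64.5%), against 69.3%, and CACCC boxes, also on either strand, in 17 of 31 (54.8%), against 67.2%. The motifs were searched separately, so a GC box and a CACCC box may share bases. Among the 10 members that fell and had a window, 3 held the ETS core, 2 the NRF1-type core, 6 a GC box and 3 a CACCC box. The window of Yars2, the synthetase gene with the largest decrease, held none of the 4 sets of letters. A match is a string of letters and does not show a bound site.

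The deposited table holds ratios between libraries and no counts, so the depth of each library is unknown; 1 value per library was recovered from the ratios, in a unit that is not given, and values are compared here between libraries and not between genes. Klf9 stood at 74.9 and 58.8 in the wild-type and 2.66 and 1.99 in the knockout libraries, a difference of -4.35 ± 0.20 on the log2 scale (SE, 2 libraries per group; adjusted p = 3.46e-06 by limma). The direction of every difference rests on this gene, since the table names its comparisons without saying which group is the numerator. Knockout replicate 2 went against the label male: Ddx3y was at 14.6 and 17.1 in wild type, 7.82 in knockout replicate 1 and 0.01, the smallest step of the values, in replicate 2, so counts are given below with and without that library. The groups differed in other ways as well. Tnni1, the troponin I of the immature heart, was at 0.16 and 0.01 in wild type and 656 and 994 in the knockout, and Esr1, the estrogen receptor, at 3326 and 2726 against 0.09 and 0.03. All 8 cardiomyocyte markers were tested, and 0 were higher and 1 lower in the knockout, with summed values of 27390 to 32010 in wild type and 30880 to 32470 in the knockout. The sum of 6 cycling-cell markers was 6.32 and 6.63 against 93.7 and 121, with all 6 higher. Fibroblast markers summed to 356 and 531 against 779 and 828 (3 of 6 higher, 1 lower), endothelial markers to 392 and 394 against 515 and 530 (3 of 6 higher), smooth muscle and pericyte markers to 260.2 and 319 against 414 and 506 (5 of 6 higher, 1 lower), and macrophage markers to 157 and 277 against 44.9 and 46.0 (5 of 6 lower). Epicardial markers summed to 4.91 and 6.78 against 21.3 and 19.4 (3 of 3 tested higher), and red cell markers to 63.4 and 56.0 against 97.8 and 65.5 (1 of 3 tested higher). Adipocyte markers summed to 749 and 1704 against 690 and 799.9, with 3 of 5 in the table and 0 of 1 tested past the threshold. All 6 lymphocyte markers were below the level tested. No marker found in the table was at the smallest step in all 4 libraries. Most of these differences fall along the same groups as the knockout. Their part in the results on the 35 genes was not tested and cannot be told apart from that of the knockout. Whether the label of 8 weeks holds for both groups was not tested either. In bulk tissue, fewer cells of a type and less RNA per cell cannot be told apart.

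Part of the mitochondrial translation genes was lower in knockout hearts and only Trmu was called higher. All 35 passed the filter on low values, and 11 were lower, 1 was higher and 23 did not pass the threshold (limma applied to log2(value + 1), with p adjusted by Benjamini and Hochberg over 12135 genes and a threshold of 0.05; 2 libraries per group). Among all tested genes 17.0% were called lower and 27.7% higher, where the members' shares were 31.4% and 2.86%. Both knockout libraries lay below both wild-type libraries in 20 members, against 30.2% of all tested genes, and above them in 6, against 45.2%. The median log2 fold change of the members was -0.31, where that of all tested genes was 0.12. RLE scaling moved the median of all genes to -0.02 and the share of higher genes among all calls from 62.0% to 50%. It left 16 members lower (45.7% against 21.6% of all tested genes) and 0 higher (against 21.6%). The excess of lower calls was not seen without either knockout library. Leaving out knockout replicate 2 left 2 lower members, Yars2 and Gatb, or 5.71% against 9.06% of all tested genes, and 0 higher. Leaving out knockout replicate 1 left 4 lower, these and Mtrf1 and Trmt5, or 11.4% against 10.3%, and 0 higher. Leaving out wild-type replicate 1 gave 18 lower (51.4% against 26.9%) and 2 higher, with Nars2, Rars2, Qrsl1, Gatc, Mtif2, Mtif3 and Mto1 now among the lower and Ears2 among the higher. Leaving out wild-type replicate 2 gave 12 lower (34.3% against 19.1%) and 1 higher, with Tars2 and Mtif2 gained and Mtrf1l lost. With no filter on low values, Fars2, Iars2, Tsfm, Mtrf1l and Gfm2 did not pass (limma, adjusted p from 0.0608 to 0.0668), which left 6 lower (17.1% against 10.3% of all genes).

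**Figure D1:**
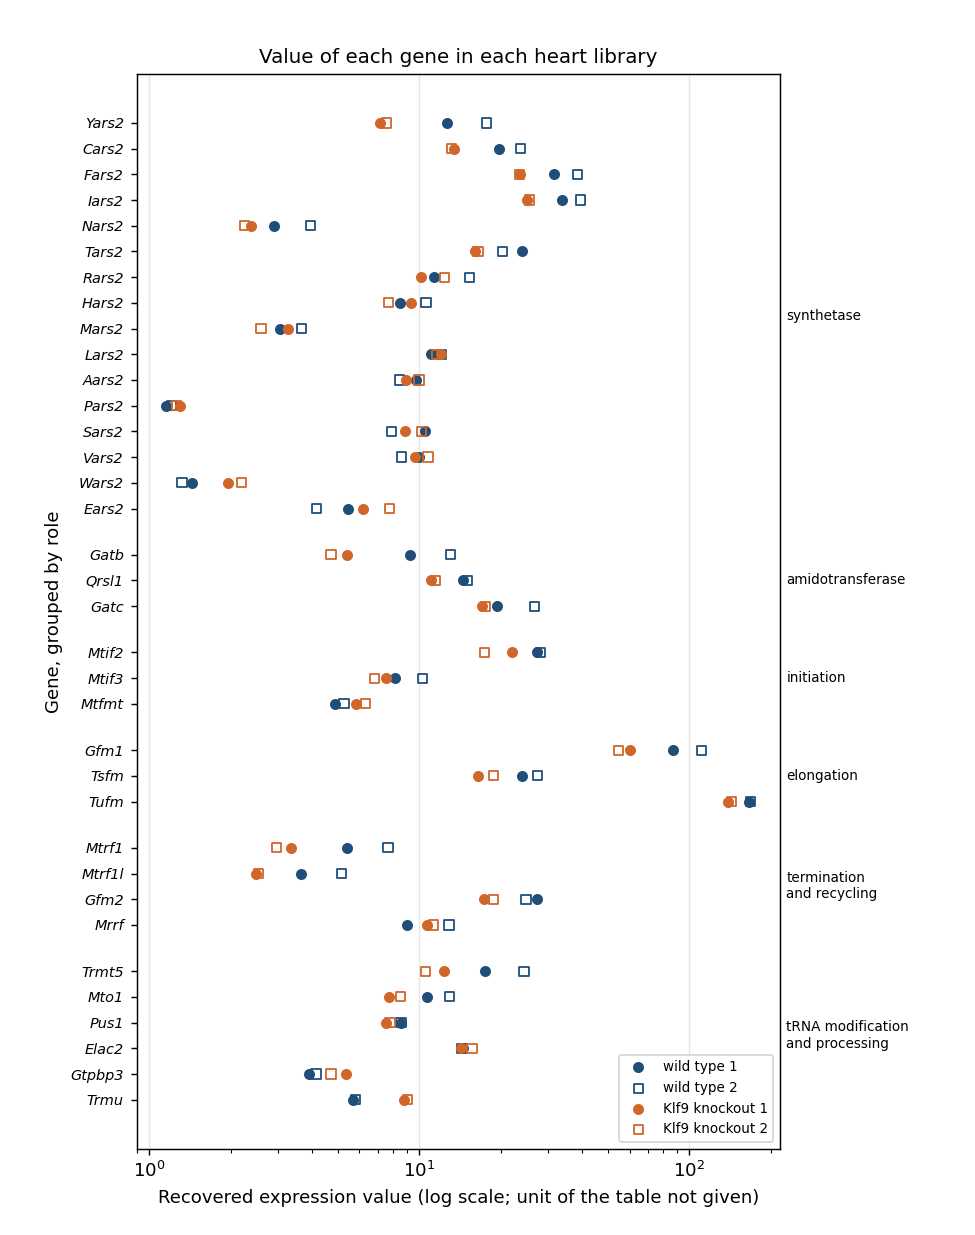
Recovered value (log axis, unit not given) of each of the 35 genes in each of the 4 libraries, wild type in blue and Klf9 knockout in orange, with filled circles for replicate 1 and open squares for replicate 2. In 20 genes both orange points lie left of both blue points, and in 6 they lie right of them.

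The libraries of a group were not equally close. Values were higher in wild-type replicate 2 than in replicate 1 for 26 of the 35 members (74.3%), against 52.4% of all tested genes, with a median log2 ratio of 0.19 for the members and 0.03 for all tested genes. Between the knockout libraries the median log2 ratio was 0.04 for both. The 4 deposited log2 ratios of a member therefore tended to be lower against wild-type replicate 2: their medians over the members were -0.24 and -0.24 against wild-type replicate 1, and -0.36 and -0.40 against replicate 2. All 4 of these medians were below those of all tested genes, which ranged from 0.10 to 0.19.

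Of the 16 synthetases, 4 (25%) were lower, 0 higher and 12 did not pass, where 17.0% of all tested genes were lower and 27.7% higher. Each synthetase joins 1 amino acid to its tRNAs. Yars2 (Entrez 70120), which charges the tyrosine tRNA, stood at 12.7 and 17.8 in wild type and 7.14 and 7.53 in the knockout, so that the knockout libraries were close together and well below the lower wild-type library. Its log2 fold change was -0.94 ± 0.20 (SE; limma, adjusted p = 0.00502), and it passed under all 12 alternatives. Cars2 (Entrez 71941), the cysteine enzyme, was at 19.8 and 23.7 against 13.4 and 13.2, a log2 fold change of -0.66 ± 0.18 (limma, adjusted p = 0.0160). Fars2 (Entrez 69955), which charges the phenylalanine tRNA and in mitochondria works as a single chain, was at 31.6 and 38.6 against 23.49 and 23.54 (-0.55 ± 0.19; limma, adjusted p = 0.0389). Iars2 (Entrez 381314), the isoleucine enzyme, was at 33.8 and 39.5 against 25 and 25.5 (-0.52 ± 0.18; limma, adjusted p = 0.0448). The groups did not overlap in any of the 4, which adds no support, since a call with 2 libraries per group favours such genes. Among all tested genes, both knockout libraries lay below in 30.2%. Cars2, Fars2 and Iars2 did not pass without either knockout library in turn, where their adjusted p reached 0.188, 0.301 and 0.333, while the log2 fold change stayed negative.

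The other synthetases lay on both sides, and 2 of them had both knockout libraries below and 3 had both above. Among all tested genes, 30.2% lay below and 45.2% above in this way. Nars2, the asparagine enzyme, was at 2.90 and 3.96 in wild type and 2.37 and 2.25 in the knockout (-0.41 ± 0.18; limma, adjusted p = 0.0989), and Tars2, the threonine enzyme, at 23.9 and 20.3 against 16.1 and 16.5 (-0.41 ± 0.18; adjusted p = 0.0903 by limma); both passed after RLE scaling (limma adjusted p of 0.0452 and 0.0350). In the other direction lay Ears2 and Wars2. Ears2, which charges glutamate onto its own tRNA and, in mitochondria, onto the glutamine tRNA, was at 5.42 and 4.17 against 6.17 and 7.77 (0.46 ± 0.19; limma, adjusted p = 0.0793). Wars2, the tryptophan enzyme, was at 1.44 and 1.32 against 1.96 and 2.19 (0.37 ± 0.16; limma, adjusted p = 0.0870). With all 4 libraries neither passed the threshold. Pars2, the proline enzyme, was also above in both knockout libraries, by a small margin, at 1.15 and 1.21 against 1.30 and 1.26.

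In 7 synthetases the groups overlapped. Rars2, the arginine enzyme, was at 11.3 and 15.3 against 10.1 and 12.4, Hars2 (histidine) at 8.48 and 10.6 against 9.28 and 7.71, and Mars2 (methionine) at 3.05 and 3.65 against 3.27 and 2.59, with log2 fold changes of -0.22, -0.15 and -0.15. Lars2, the leucine enzyme, was at 11.01 and 12.05 against 12.01 and 11.55, Aars2 (alanine) at 9.74 and 8.42 against 8.95 and 9.96, and Sars2 (serine) at 10.5 and 7.88 against 8.88 and 10.2. Vars2, the valine enzyme, was at 9.95 and 8.61 against 9.62 and 10.8. Log2 fold changes of these last 4 and of Pars2 lay between 0.03 and 0.12, and all 5 were negative after RLE scaling (-0.11 at the lowest). The synthetases thus ranged from -0.94 to 0.46, with 9 values below 0 and 7 above.

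No glutaminyl-tRNA synthetase works in mitochondria: glutamate is placed on the glutamine tRNA and turned into glutamine by an amidotransferase of 3 subunits, encoded by Qrsl1, Gatb and Gatc. Gatb (Entrez 229487) had the largest decrease of the 35 genes, from 9.25 and 13.04 to 5.39 and 4.71, a log2 fold change of -0.99 ± 0.20 (SE; limma, adjusted p = 0.00399). It passed under all 12 alternatives. Qrsl1, the catalytic subunit, was at 14.53 and 15.09 against 11.01 and 11.45 (-0.37 ± 0.17; limma, adjusted p = 0.104, or 0.0350 after RLE scaling), and Gatc at 19.3 and 26.7 against 17.1 and 17.6 (-0.37 ± 0.20; limma, adjusted p = 0.164). With all libraries and no scaling neither passed, and Gatc did not pass after RLE scaling either (0.0612 by limma). In all 3 subunits both knockout libraries were the lower ones, a pattern seen in 30.2% of all tested genes. Ears2, the enzyme before this step, had a positive log2 fold change (0.46), as given above.

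Of the genes of initiation, 0 of 3 passed, where 17.0% of all tested genes were lower and 27.7% higher. Mtfmt puts a formyl group on the initiator methionine tRNA, Mtif2 brings that tRNA to the ribosome, and Mtif3 readies the small subunit. Mtif2 was at 27.3 and 28.2 in wild type and 21.96 and 17.40 in the knockout (-0.48 ± 0.19; limma, adjusted p = 0.0647; 0.0265 after RLE scaling). Mtif3 was at 8.09 and 10.3 against 7.53 and 6.82 (-0.31 ± 0.18; limma, adjusted p = 0.194). Mtfmt had both knockout libraries above, at 4.88 and 5.26 against 5.81 and 6.33 (0.22 ± 0.17; limma, adjusted p = 0.309).

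In elongation, the translocase and the exchange factor fell, and the tRNA carrier did not pass. Gfm1 (Entrez 28030), which encodes elongation factor G1 and moves the ribosome along the message, was at 87.2 and 111 in wild type and 60.2 and 54.6 in the knockout, a log2 fold change of -0.77 ± 0.20 (SE; limma, adjusted p = 0.0148). Tsfm (Entrez 66399), the nucleotide exchange factor EF-Ts, was at 24.1 and 27.5 against 16.6 and 18.8 (-0.52 ± 0.18; limma, adjusted p = 0.0439). Its partner Tufm, the factor EF-Tu that delivers charged tRNAs, was at 166 and 169 against 138 and 143. These Tufm values did not overlap, but the log2 fold change of -0.25 ± 0.20 did not pass (limma, adjusted p = 0.336). Gfm1 and Tsfm did not pass without either knockout library in turn, with adjusted p of up to 0.207 and 0.406.

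Among the genes of termination and recycling, 3 of 4 fell, where 17.0% of all tested genes were lower. Mtrf1l encodes the release factor that reads the usual stop codons, Mtrf1 a related release factor, and Mrrf and Gfm2 act together to split the ribosome after release. Mtrf1 (Entrez 211253) was at 5.39 and 7.65 in wild type and 3.36 and 2.96 in the knockout (-0.84 ± 0.20; limma, adjusted p = 0.00838). Mtrf1l (Entrez 108853) was at 3.65 and 5.13 against 2.48 and 2.54 (-0.61 ± 0.19; limma, adjusted p = 0.0294). Gfm2 (Entrez 320806), elongation factor G2, was at 27.3 and 24.8 against 17.3 and 18.8 (-0.50 ± 0.18; limma, adjusted p = 0.0444). Its partner Mrrf had overlapping groups, at 9 and 12.9 against 10.7 and 11.3, and its log2 fold change of 0.03 was negative after RLE scaling (-0.11). Mtrf1 did not pass without knockout replicate 2 (adjusted p = 0.0643), Gfm2 without either knockout library (up to 0.387), and Mtrf1l without either knockout library or wild-type replicate 2 (up to 0.156).

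The tRNA enzymes moved in both directions. Trmu (Entrez 72026), which adds sulfur to the wobble uridine of the lysine, glutamate and glutamine tRNAs, was at 5.67 and 5.79 in wild type and 8.75 and 9.01 in the knockout, with little spread in either group. Its log2 fold change was 0.55 ± 0.16 (SE; limma, adjusted p = 0.0224), the highest of the 35. It remained positive and did not pass after RLE (0.42; limma, adjusted p = 0.0639) or upper quartile scaling (0.43; limma, adjusted p = 0.0580), nor without either knockout library in turn (adjusted p of up to 0.239). Trmt5 (Entrez 76357), which methylates the guanosine next to the anticodon, fell from 17.4 and 24.4 to 12.4 and 10.6 (-0.80 ± 0.21; limma, adjusted p = 0.0135), and did not pass without knockout replicate 2 (adjusted p of 0.153).

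Mto1 and Gtpbp3, which together build the taurine-containing group on the same wobble uridine that Trmu modifies, lay on opposite sides. Mto1 was at 10.6 and 12.9 against 7.69 and 8.51 (-0.49 ± 0.18; limma, adjusted p = 0.0523), and passed after RLE scaling (adjusted p = 0.0197 by limma). Gtpbp3 was at 3.89 and 4.14 against 5.33 and 4.71 (0.26 ± 0.17; limma, adjusted p = 0.234). Pus1, a pseudouridine synthase, was at 8.57 and 8.55 against 7.54 and 7.78 (log2 fold change -0.14). Elac2, which trims the 3′ end of the precursor tRNA, was at 14.5 and 14.3 against 14.2 and 15.7, and its log2 fold change of 0.05 was -0.10 after RLE scaling.

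**Figure D2:**
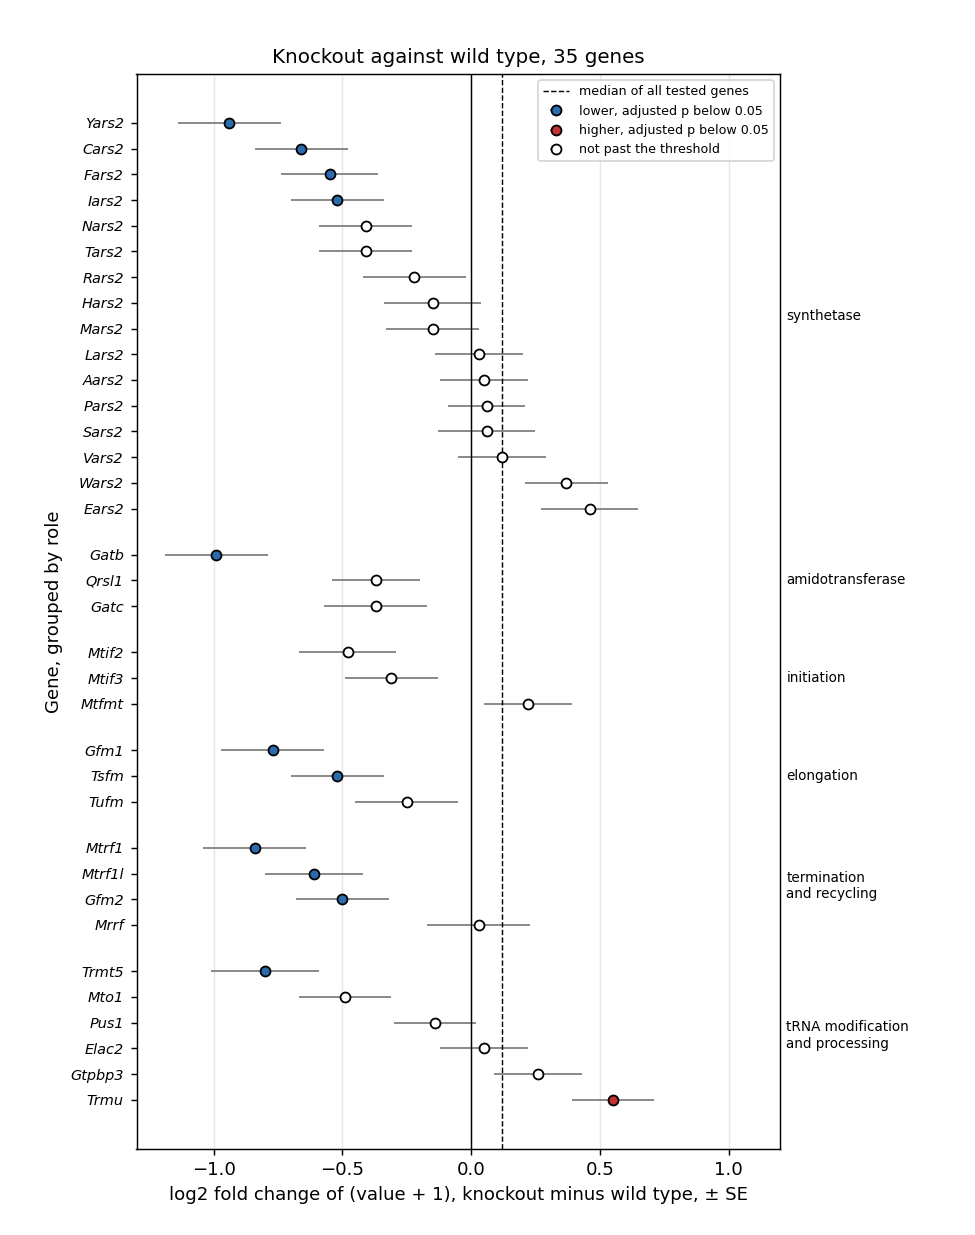
Log2 fold change of value + 1, knockout minus wild type, for the 35 genes by role, with the SE of the limma fit as bars (n = 2 libraries per group); blue points were lower and red points higher at an adjusted p below 0.05, and open points did not pass. The dashed line is the median of all tested genes, 0.12; 11 points are blue and Trmu is red.

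The synthetases and the other members were set side by side as the 2 kinds of gene in the set. Of the synthetases 25% were lower, and of the 19 factors and tRNA enzymes 36.8% (7 genes), where the background was 17.0%. Knockout libraries lay below both wild-type libraries in 6 of 16 synthetases and in 14 of 19 other members, and above in 3 of each. Among all tested genes they lay below in 30.2% and above in 45.2%. Median log2 fold changes were -0.15 for the synthetases and -0.37 for the others, or -0.26 and -0.49 relative to all tested genes. In each of the 4 deposited pairs the median log2 ratio was lower for the factors and tRNA enzymes (-0.31, -0.45, -0.32 and -0.55) than for the synthetases (-0.14, -0.17, -0.09 and -0.30). The pairs share libraries and the genes are not replicates, so this difference has no test. The gap in calls was not seen without knockout replicate 2, where 1 of 16 synthetases (6.25%) and 1 of 19 others (5.26%) were lower, against 9.06% of all tested genes, while the medians were -0.03 and -0.39. Without knockout replicate 1 there were 1 of 16 (6.25%) and 3 of 19 (15.8%), against 10.3%, with medians of -0.17 and -0.37.

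The cytosol has its own synthetases, and 20 of their genes were read in the same fit. Of these 1 was higher (Vars) and 2 lower (Dars and Eprs), or 5% and 10%, against 27.7% and 17.0% of all tested genes, and the median log2 fold change was -0.16. Dars, the aspartate enzyme, was at 28.1 and 43.9 in wild type and 20.9 and 20.7 in the knockout (-0.73 ± 0.23; limma, adjusted p = 0.0288). Eprs, a fused enzyme for glutamate and proline, was at 13.5 and 13.3 against 9.25 and 9.08 (-0.50 ± 0.17; limma, adjusted p = 0.0363). Vars, the valine enzyme, was at 16.3 and 8.97 against 19.6 and 22.9 (0.76 ± 0.26; limma, adjusted p = 0.0412). Without either knockout library in turn 0 of the 20 passed, and after RLE scaling 4 were lower and 0 higher. Gars and Kars, whose products serve both compartments, had log2 fold changes of -0.01 and -0.03, and neither passed.

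Enzymes for the same amino acid shared the sign of the log2 fold change in 9 of 16 pairs, both negative in 7 and both positive in 2, and in 12 pairs after RLE and 11 after upper quartile scaling, all of them negative. The mitochondrial enzyme had the more negative value in 7 of the 16 pairs. Tyrosine gave a wide gap, with Yars2 at -0.94 and its cytosolic counterpart Yars at 0.06 (-0.09 after RLE scaling). For phenylalanine, Fars2 was at -0.55 and Farsa, the alpha subunit of the cytosolic enzyme, at 0.41. Farsb, the gene of the other subunit, was at -0.21 (limma, adjusted p = 0.412), the same sign as Fars2. The pair counts use Farsa. For glutamate the order was turned, with Ears2 at 0.46 and Eprs at -0.50. Cars2 and Cars (-0.66 and -0.33) and Nars2 and Nars (-0.41 and -0.43) lay on the same side.

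**Figure D3:**
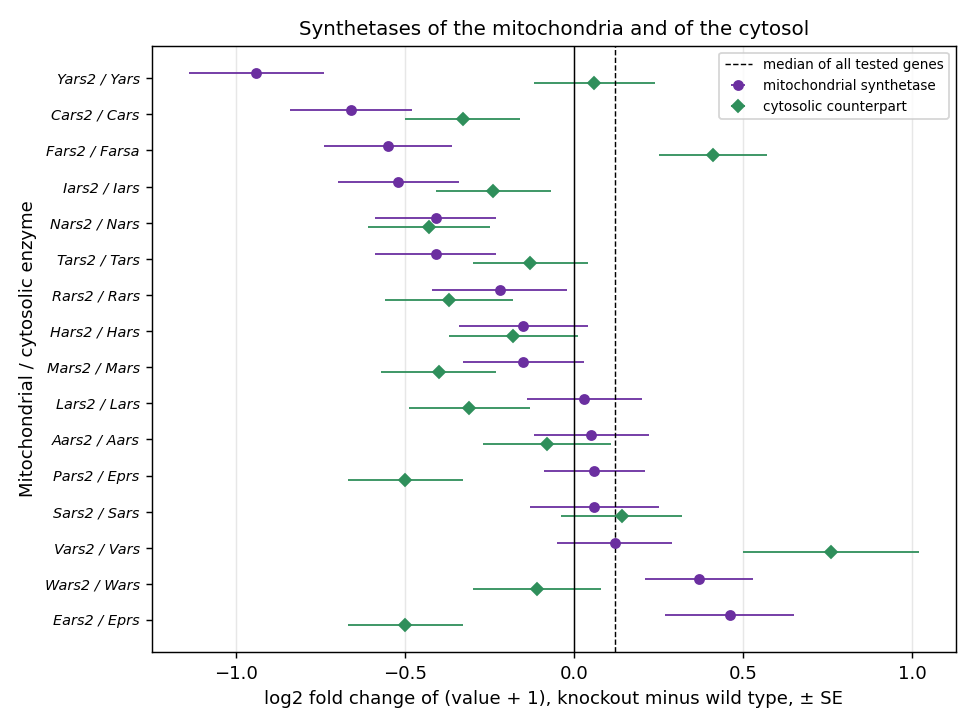
Log2 fold change of value + 1, knockout minus wild type, with the SE of the limma fit (n = 2 libraries per group), for 16 mitochondrial synthetases (circles) and the cytosolic enzyme for the same amino acid (diamonds). Eprs serves as the counterpart of both Ears2 and Pars2, and Farsa, without Farsb, as that of Fars2. The mitochondrial enzyme lies further left in 7 of 16 pairs, with the widest such gaps for Yars2 and Fars2.

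Of a further list of genes for mitochondrial tRNA and ribosomal RNA processing, ribosome assembly and translational activation, 42 of 48 were in the table and all 42 were tested. In it 16 were lower (38.1% against 17.0% of all tested genes) and 1 higher (2.38% against 27.7%). The median log2 fold change was -0.42, where that of all tested genes was 0.12. Osgepl1, which makes the threonylcarbamoyl group of mitochondrial tRNAs, was at 29.8 and 62.2 in wild type and 14.5 and 12.4 in the knockout (-1.61 ± 0.31; limma, adjusted p = 0.00299). Cdk5rap1, a methylthio-transferase for mitochondrial tRNAs, was at 6.65 and 7.09 against 3.39 and 3.21 (-0.87 ± 0.17; limma, adjusted p = 0.00300). Taco1, a translational activator of cytochrome c oxidase subunit I, was at 8.35 and 8.83 against 4.97 and 4.16 (-0.79 ± 0.17; limma, adjusted p = 0.00577). Dhx30, an RNA helicase of ribosome assembly, was the higher one, at 14.3 and 12.2 against 19.5 and 20.3 (0.55 ± 0.18; limma, adjusted p = 0.0321; 0.0944 after RLE scaling). Leaving out either knockout library left 5 lower (11.9%) and 0 higher, close to the 10.3% of all tested genes lower without replicate 1 and the 9.06% without replicate 2. Leaving out wild-type replicate 1 gave 25 lower (59.5% against 26.9%) and 3 higher. As in the 35 members, wild-type replicate 2 was mostly above replicate 1, in 37 of 42 genes.

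Close neighbours were common. In the GENCODE vM21 annotation of GRCm38, 11 of the 35 had a protein-coding start on the opposite strand within 1000 bases, against 13.2% of 16857 protein-coding genes of the table. For 10 of them the neighbour was in the table. Qrsl1 and its neighbour Rtn4ip1, 62 bases apart, were both below in the knockout, with Rtn4ip1 at 32.2 and 35.7 against 17.1 and 14.9 (-1.04 ± 0.18; limma, adjusted p = 0.00194). Trmt5, which fell, starts 69 bases from Slc38a6, which rose from 4.30 and 3.35 to 7.42 and 6.56 (0.73 ± 0.18; limma, adjusted p = 0.0105). Ears2 starts 88 bases from Ubfd1, which rose from 5.82 and 5.39 to 9.90 and 10.5 (0.76 ± 0.16; limma, adjusted p = 0.00578). Gatc and Triap1, 47 bases apart, each had a log2 fold change of -0.37, and neither passed. Sars2 (0.06) starts 172 bases from Mrps12 (-0.55), a gene of the mitochondrial ribosome, which did not pass. Fars2, which fell, starts 114 bases from Lyrm4 (-0.60, adjusted p = 0.0583 by limma), which did not pass. Gfm2, which also fell, starts 0 bases from Nsa2 (0.09), which did not pass. Hars, Orc3 and Rbm18, the neighbours of Hars2, Rars2 and Mrrf, lay between -0.18 and -0.06, and none passed.

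Exons of 15 members overlap those of another gene, each on the opposite strand in the pair with the longest overlap, and for 10 the overlap was over 5% of the exonic length. The sources used here do not say whether reads were counted by strand, so reads in these stretches cannot be assigned with certainty. Among members that fell, Iars2 shares 22.9% of its exonic bases with Rab3gap2, whose log2 fold change was 0.22, and Fars2 shares 8.7% with Nrn1, which fell (3.05 and 8.32 against 0.77 and 0.80; limma, adjusted p = 0.00257). Shares were 5.8% for Cars2, 5.7% for Tsfm and 5.8% for Gfm2. Gfm1 shares 1.4% with Lxn, which rose from 4.81 and 5.55 to 16.1 and 18.3 (limma, adjusted p = 0.000204). Yars2, Gatb, Mtrf1, Mtrf1l, Trmu and Trmt5 had no exonic overlap.

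The authors' deposited table also compares the groups with DEGseq, per its column names. With a q-value under 0.001 and a log2 ratio of 1 or more in size, the authors' deposited table called 3 members lower, Gatb (-1.19), Mtrf1 (-1.11) and Yars2 (-1.02), and 0 higher, where 8.77% of its genes were lower and 14.3% higher by that rule. For lower genes, 3 of 35 members is no excess over that share. All 3 were among the 11 that fell in limma, but both tests used the same 4 libraries, so the overlap is no independent support. At a q-value below 0.05 alone, the authors' deposited table held 26 members. Of these, 14 did not pass limma, the test that takes the spread between libraries as its error. The share of all genes under this q-value was not computed, so the 26 cannot be read as an excess. Tufm had a log2 ratio of -0.25 with q = 1.12e-22 in the authors' deposited table. Ears2 had one of 0.87 in the authors' deposited table, while the recovered values gave 0.54; a gap of more than 0.2 was found for this member alone and for 2.7% of all tested genes.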

How the data were processed

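The authors deposited a single table with 17485 genes, which holds log2 ratios for the 4 pairings of single libraries between the groups and for the groups themselves, with p-values, q-values and false discovery rates per the file headers (a Poisson model for pairs, DEGseq for groups). Neither aligner, quantification, genome build nor depth is named in the sources used here. The false discovery rates were not used. The headers name each comparison with wild type first and do not state which group is the numerator. The log2 ratios were read as knockout over wild type, the reading in which Klf9 is low in the knockout, so Klf9 is no independent check of the labels.

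Where all 4 ratios were present (16152 genes), they added up with a largest error of 9.9e-14. Continued fractions gave the smallest whole numbers behind them for all 17485 genes, read as values in steps of 0.01. A missing ratio was read as a pair at 1 step. A whole-number factor shared by the 4 values of a gene is lost, which lowers its level but not its ratios. Of 3000 made-up sets of values, 93.6% were recovered exactly and 100.0% up to such a factor. A lowered level can change whether a gene passes the filter, and its log2 fold change of value + 1, SE and p. Which genes of the table lost a factor was not tested. The step and the unit are assumptions.

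The 12135 genes that reached 1 in 2 or more libraries were fitted with limma 3.58.1 in R 4.3.3 (trend, robust) on log2(value + 1), with group as the only term, in place of a count test, since no counts were there. Fold changes on this scale understate those of low values. The fit and the recovery were tested on simulated data. Python 3.11.15, numpy 2.4.6, pandas 2.3.3 and matplotlib 3.10.9 were used. Every member was named; of the cytosolic synthetases and the further translation genes, up to 3 with the lowest p in each direction past the threshold. Other cytosolic enzymes, neighbours and overlapping genes were named after their values were seen. The members and lists were chosen with earlier results of these data known. Alternatives were scaling by RLE or the upper quartile, leaving out the filter, a filter at 5, a pseudocount of 0.1, non-robust moderation, the replicate number as a block, leaving out each library and, chosen after seeing the data, no pseudocount.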

Additional observations from a re-analysis of the deposited data

How the results depend on the processing

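Of the 12 members past the threshold, Yars2 and Gatb passed under all 12 alternatives. A pseudocount of 0.1, no pseudocount and non-robust moderation changed no call among the 35. After RLE or upper quartile scaling there were 16 lower and 0 higher members (0 higher among the factors and tRNA enzymes), 4 lower and 0 higher cytosolic synthetases and 0 higher genes in the further list. The medians were then -0.0152 and -0.0032 for all genes, -0.27 and -0.26 for synthetases and -0.52 and -0.50 for the others. Without a filter, 6 members were lower (2 synthetases and 4 others), 1 cytosolic synthetase was lower and 0 higher, and 10 genes of the further list were lower and 0 higher. Of all genes 10.3% were lower and 18.4% higher without a filter. With the filter at 5, 29 members were tested. Leaving out each library in turn gave 1100 to 3261 lower and 1859 to 4327 higher genes in all, 2 to 18 lower and 0 to 2 higher members, 1 to 6 lower and 0 to 1 higher synthetases, 1 to 12 lower and 0 to 1 higher other members, 0 to 7 lower and 0 to 2 higher cytosolic synthetases, and 5 to 25 lower and 0 to 5 higher genes of the further list; the synthetase median ran from -0.27 to -0.03 and that of the others from -0.47 to -0.34. With 1 library left in a group, it is assumed to vary like the others. The cause of these changes was not tested.

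Members that did not pass and turned negative after RLE and upper quartile scaling were Aars2 (-0.0844 and -0.0717), Lars2 (-0.11 and -0.10), Pars2 (-0.0196 and -0.0117), Sars2 (-0.0802 and -0.0674), Vars2 (-0.0150 and -0.0022), Mrrf (-0.11 and -0.10) and Elac2 (-0.10 and -0.0820). Leaving out each library gave ranges that crossed 0 for Aars2 (-0.0405 to 0.1487), Lars2 (-0.0304 to 0.0894), Sars2 (-0.1279 to 0.2451), Mrrf (-0.2094 to 0.2626) and Elac2 (-0.0160 to 0.1126).

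Deviations of same-numbered libraries had a correlation of -0.04 over the tested genes. With 2 libraries per group, this cannot decide whether the replicate numbers of the labels pair the libraries. With the replicate block 9 members were lower and 1 higher, as Iars2 and Gfm2 did not pass, and 2275 genes were lower and 3514 higher in all. The unknown depth leaves the counting error of low values, such as those of Pars2 and Wars2, unknown.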
